A study of Mus musculus with 6 samples.

Results

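The subject is 9 genes of cytosolic nucleic acid sensing upstream of interferon: Cgas, Sting1, Tlr3, Mavs, Tbk1, Irf3, Trex1, Samhd1 and Adar. They were matched by symbol to the probe sets of a mouse Affymetrix Clariom S array, where 8 of the 9 had a probe set, 1 each, among 19505 named genes and 22206 gene probe sets. Trex1, a DNA exonuclease, had no match and was not analysed here. Each of 3 groups had 2 arrays, and all derive from melan-a, a line of immortalized mouse melanocytes on the C57BL/6J background. The lines mKitK641E(T), here T, and mKitK641E(PT), here PT, carry Kit with the K641E substitution, an activating change in this receptor tyrosine kinase, and are described in the labels as transformed melanoma cells. Their titles read c-kit(K641E)C3# for T and c-kit(K641E)hi exp for PT, and the labels do not spell out T, PT, C3# or hi exp. mVec was transduced with a control vector, titled CD516B2. All 3 groups were grown in RPMI with 10% serum and the labels record no treatment of any of them. Each group is 1 line, and nothing says that its arrays are separate cultures, so errors and p-values measure the spread between arrays, which may be technical.

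Cells detect foreign or misplaced nucleic acid through a few relays. The enzyme cGAS, the product of Cgas, binds double-stranded DNA in the cytosol and makes the messenger cGAMP, which activates STING on the endoplasmic reticulum. RIG-I and MDA5 bind RNA in the cytosol and signal through MAVS on mitochondria, and TLR3 binds double-stranded RNA in endosomes. These routes meet at the kinase TBK1, which phosphorylates the transcription factor IRF3, and IRF3 switches on interferon genes. TREX1, SAMHD1 and ADAR work in the other direction: they degrade DNA, hydrolyse deoxynucleotides and edit double-stranded RNA, and their loss in humans causes an inherited interferon disease. Several sensors are themselves switched on by interferon.

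Values are log2 expression per probe set. A background limit was set for each array at the value that 95% of 5222 negative controls do not exceed, between 8.74 and 9.16. A group counts as at background if both of its arrays lie below their limits. Between 29.0% and 32.6% of gene probe sets passed it. At the 99th percentile of the same controls the limits lay between 12.15 and 13.07, so some negative controls are bright and the lower limit is a lenient one. Differences are first-named group minus second, each with the standard error of the limma fit, and a gene was called, written as rose or fell, at an adjusted p under 0.05. The probe set of Kit was at background in all 3 groups (means 4.86 in T, 4.19 in PT, against 4.82 in mVec). It was not called in any comparison, so a rise of Kit in the Kit lines was not seen. Values this low give no check of the labels. Of 11 melanocyte markers, 2 passed the limit on each T array, 1 on each PT array and 1 on each mVec array. The summed signal of the 11 on the log2 scale was 13.86 and 13.91 in T, 12.90 and 13.02 in PT, against 15.30 and 15.27 in mVec. In each Kit line 1 was called higher and 1 lower than in mVec, the higher one in PT at background in both groups. Tyr, Tyrp1, Dct, Pmel, Mlana and Sox10 were at background on all 6 arrays. The labelled cell type is thus not borne out by these named markers in any group, although at least 1 other listed marker passed the limit in each. Of 11 measured fibroblast markers, 6 were called lower and 2, Col1a2 and Fbln1, higher in each Kit line than in mVec, where 5 passed the limit on each array. Without genes at background in both groups compared, 5 were called lower and 1 higher in each line. Col1a1, Dcn and Fap, among those called lower, encode a collagen, a matrix proteoglycan and a surface protease and averaged 7.90, 5.46 and 6.35 on the T arrays, 7.90, 4.92 and 4.33 on the PT arrays, and 15.13, 13.99 and 13.65 on the mVec arrays. Every comparison with mVec below is between lines that differ in these markers too.

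The promoters of the members with the largest changes are shown first, since the results turn on genes that moved in opposite directions. These are the 250 bases before the RefSeq start of Cgas, which rose, and of Tlr3 and Samhd1, which fell, in build GRCm38.p6 and written along the gene's own strand. The last line gives the 100 bases before the start of Isg15, an antiviral gene that fell in both lines, for comparison. Capitals mark matches on either strand to the interferon regulatory factor core, which is GAAA, any 2 bases and GAAA again, or to the STAT core TTCNNNGAA.
Cgas, chr9:78443238-78443487, minus strand: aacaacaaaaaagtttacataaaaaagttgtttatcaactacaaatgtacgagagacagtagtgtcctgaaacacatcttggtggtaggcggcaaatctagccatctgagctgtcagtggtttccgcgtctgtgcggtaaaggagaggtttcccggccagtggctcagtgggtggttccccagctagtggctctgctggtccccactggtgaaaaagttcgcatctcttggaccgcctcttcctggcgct
Tlr3, chr8:45410381-45410630, minus strand: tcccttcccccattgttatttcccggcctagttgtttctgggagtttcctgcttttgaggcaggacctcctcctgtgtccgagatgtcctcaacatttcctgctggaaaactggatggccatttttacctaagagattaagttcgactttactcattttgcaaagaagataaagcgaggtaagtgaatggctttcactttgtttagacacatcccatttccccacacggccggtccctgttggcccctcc
Samhd1, chr2:157135097-157135346, minus strand: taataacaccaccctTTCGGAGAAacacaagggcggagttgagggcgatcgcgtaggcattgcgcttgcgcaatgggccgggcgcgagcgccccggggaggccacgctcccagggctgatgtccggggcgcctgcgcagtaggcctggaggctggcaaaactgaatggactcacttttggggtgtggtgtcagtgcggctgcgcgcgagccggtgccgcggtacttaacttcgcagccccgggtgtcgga
Isg15, chr4:156200819-156200918, minus strand: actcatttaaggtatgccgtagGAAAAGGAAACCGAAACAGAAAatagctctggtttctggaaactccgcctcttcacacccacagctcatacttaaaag
The Isg15 stretch holds 3 overlapping matches to the interferon regulatory factor core, starting 78, 72 and 66 bases before the start site. The Samhd1 stretch holds 1 match to the STAT core, 235 bases before the start, and the Cgas and Tlr3 stretches hold neither motif. Counted over whole windows of 250 bases before to 50 after a start, 0 of the 11 windows of the 8 members in the RefSeq table, Trex1 included, held the interferon regulatory factor core, against 3.44% of 32851 windows of all genes and 6 of 15 windows of the interferon readout genes described below. The STAT core was in 2 of the 11 member windows, in Samhd1 and in 1 of the 3 windows of Adar, against 8.3% of all windows. Sting1 was not among these windows. A match is a stretch of letters and no evidence of binding, and a window without one says only that these letters are missing there.

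The comparison of T with mVec asks how sensing genes differ between a line with mutant Kit and the vector line. Of the 8 measured members, Cgas and Tbk1 rose, Tlr3 and Samhd1 fell, and Sting1, Mavs, Irf3 and Adar were not called. In all, 32.4% of gene probe sets were called between these groups, 16.9% higher and 15.5% lower in T, so that 52.3% of the calls were higher, or 62.3% with arrays centred on their medians. The members were called 2 in each direction, and the median of their absolute differences was 0.71 against 0.39 over all gene probe sets. The arrays of T and mVec did not overlap for 7 of the 8 members, as for 61.6% of all gene probe sets.

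In PT against mVec, Cgas and Tbk1 rose, and Sting1, Tlr3, Mavs, Irf3 and Samhd1 fell. Adar was not called. Here 35.9% of gene probe sets were called, 17.9% higher and 18% lower in PT, so that 49.9% of the calls were higher, or 60.3% with arrays centred on their medians. The arrays of PT and mVec did not overlap for any of the 8 members, as for 64.8% of all gene probe sets, and the members' median absolute difference was 1.33 against 0.42. Both comparisons use the same mVec arrays and are not independent.

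**Figure D1:**
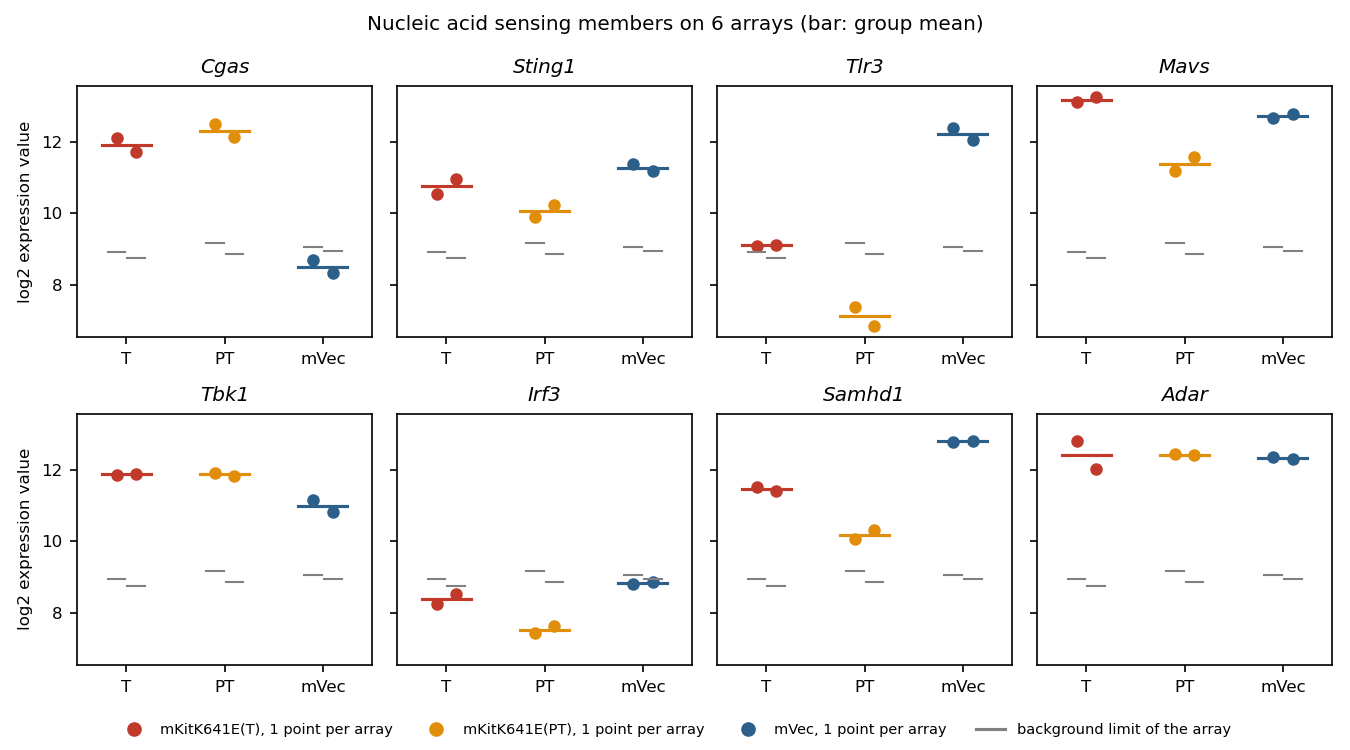
Log2 expression values of the 8 measured members on each of the 6 arrays, with groups T, PT and mVec from left to right; points are arrays, coloured bars are group means and short grey bars are each array's background limit. Cgas is below the limit in mVec and at 11.70 or more in both Kit lines, while Tlr3 and Samhd1 are highest in mVec, lower in T and lowest in PT.

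Cgas, the DNA sensor, gave 12.09 and 11.70 on the T arrays, 12.49 and 12.13 on the PT arrays, and 8.69 and 8.33 on the mVec arrays. It was above the limit on every array of both Kit lines and at background in mVec, with no overlap. On the log2 scale it rose in T by 3.39 ± 0.24 (limma adjusted p = 4.5e-06), at least 7.44-fold, and in PT by 3.80 ± 0.24 (adjusted p = 1.51e-06), at least 9.90-fold. The folds are lower bounds because the mVec level is taken at the limit. The order of levels was PT, T and mVec, of which PT and T did not differ beyond their spread (T minus PT -0.41 ± 0.24, adjusted p = 0.371, 95% interval -0.96 to 0.14). The difference from mVec kept its call in all 14 alternatives in both lines, some of which repeat the same fit.

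Sting1, the adaptor that receives the cGAMP signal, fell in PT, where Cgas rose. It gave 10.54 and 10.97 in T, 9.90 and 10.23 in PT, against 11.38 and 11.17 in mVec. All 6 values were above the limit, mVec was highest and PT lowest, and no groups overlapped. Sting1 fell 2.32-fold in PT (log2 difference -1.21 ± 0.24, limma adjusted p = 0.00235). In T the difference of -0.52 ± 0.24 did not pass (adjusted p = 0.133, 95% interval -1.05 to 0.01), although it did under quantile normalization (-0.69, adjusted p = 0.0344, range over 14 alternatives 0.0344 to 0.435). T minus PT was 0.69 ± 0.24 and was not called either (adjusted p = 0.114), so the lines were not shown to differ in Sting1.

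Tlr3, the endosomal receptor for double-stranded RNA, had the largest change among the members in PT. It gave 9.09 and 9.12 in T, 7.38 and 6.86 in PT, against 12.38 and 12.04 in mVec. The mVec arrays were far above the limit, the T arrays just above it and the PT arrays below it. Tlr3 fell 8.62-fold in T (log2 difference -3.11 ± 0.24, limma adjusted p = 7.22e-06) and at least 9.17-fold in PT (-5.09 ± 0.24, adjusted p = 2.57e-07). T and PT differed as well, by 1.98 ± 0.24 (adjusted p = 0.00219), a fold of at least 1.06 since PT was at background. All 3 differences were called in each of their 14 alternatives, some of which repeat the same fit.

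Mavs, the adaptor on mitochondria that serves the RNA sensors, separated the Kit lines. It gave 13.10 and 13.24 in T, 11.18 and 11.57 in PT, against 12.66 and 12.78 in mVec. PT was lowest with no overlap, and T lay above mVec by less than the test needed. Mavs fell 2.54-fold in PT against mVec (log2 difference -1.34 ± 0.22, limma adjusted p = 0.000724) and was 3.48-fold higher in T than in PT (1.80 ± 0.22, adjusted p = 0.00211). T minus mVec was 0.45 ± 0.22 (adjusted p = 0.158, 95% interval -0.04 to 0.94).

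Tbk1, the kinase on which the DNA and RNA routes converge, gave 11.86 and 11.88 in T, 11.91 and 11.81 in PT, against 11.15 and 10.81 in mVec. The Kit lines lay together above mVec. Tbk1 rose 1.85-fold in T (log2 difference 0.89 ± 0.21, limma adjusted p = 0.00843) and 1.84-fold in PT (0.88 ± 0.21, adjusted p = 0.00773). Each call was kept in 13 of 14 alternatives, some of which repeat the same fit. Both were lost without mVec replicate 2, where the differences were 0.72 in T and 0.71 in PT. That fit leaves mVec 1 array and has a larger standard error, 0.27 against 0.21, so the loss cannot be laid to that array's value alone. T minus PT was 0.01 ± 0.21 (95% interval -0.47 to 0.48).

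Irf3, the transcription factor that TBK1 activates, was at background on every array. It gave 8.24 and 8.53 in T, 7.42 and 7.62 in PT, against 8.81 and 8.84 in mVec. mVec was highest and PT lowest, with no overlap, but no fold is given because all 6 values lie below their limits. The test called it lower in PT than in mVec (-1.31 ± 0.21, limma adjusted p = 0.000702) and not in T (-0.44 ± 0.21, adjusted p = 0.155). T minus PT was called too (0.87 ± 0.21, adjusted p = 0.0358), but in 6 of 13 alternatives only, with adjusted p between 0.0147 and 0.193.

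Samhd1, which hydrolyses the deoxynucleotides needed for DNA synthesis and restrains sensing of the cell's own nucleic acid, fell in both lines. It gave 11.50 and 11.39 in T, 10.05 and 10.31 in PT, against 12.78 and 12.80 in mVec. The 3 groups stood apart, with mVec highest and PT lowest. Samhd1 fell 2.54-fold in T (log2 difference -1.34 ± 0.20, limma adjusted p = 0.000598) and 6.11-fold in PT (-2.61 ± 0.20, adjusted p = 5.27e-06). It was 2.41-fold higher in T than in PT (1.27 ± 0.20, adjusted p = 0.00665), a call lost without PT replicate 1 (1.14, adjusted p = 0.0603, range over 14 alternatives 0.000897 to 0.0603).

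Adar, the enzyme that edits adenosine to inosine in double-stranded RNA, showed no called difference. It gave 12.79 and 12.03 in T, 12.43 and 12.40 in PT, against 12.34 and 12.30 in mVec. The T arrays lay on either side of the others. T minus mVec was 0.09 ± 0.26 (95% interval -0.50 to 0.68) and PT minus mVec 0.10 ± 0.26 (-0.49 to 0.69), and both changed sign under quantile normalization (-0.12 and -0.09).

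**Figure D2:**
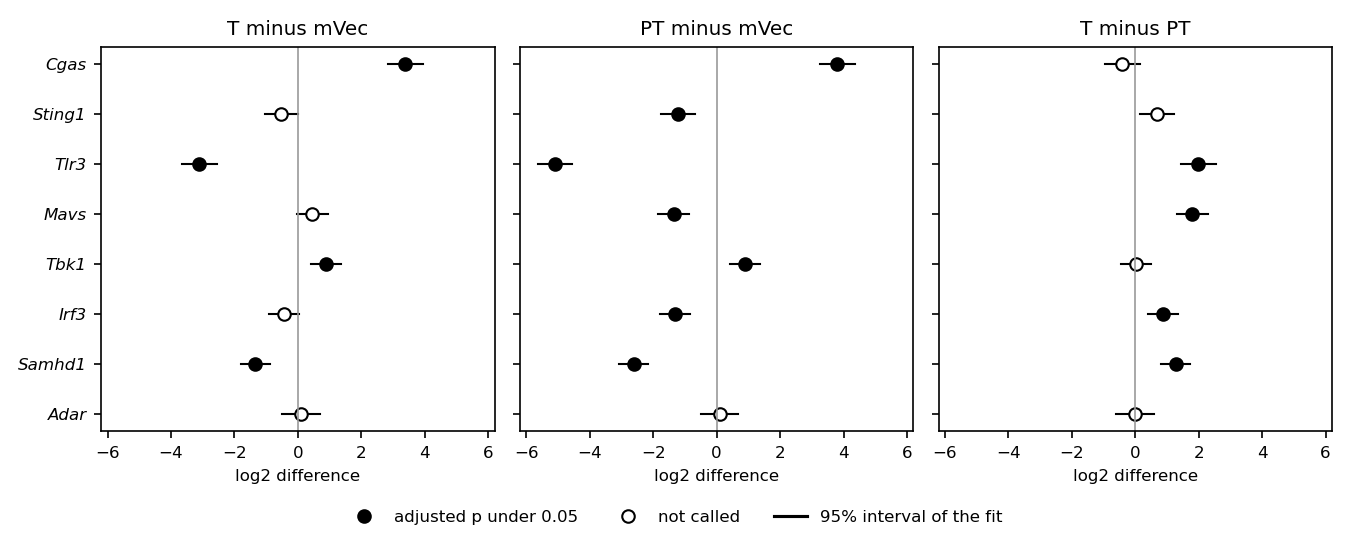
Log2 differences of the 8 measured members in the 3 comparisons, with the 95% interval of the limma fit; filled points are called at an adjusted p under 0.05. Cgas is far to the right and Tlr3 far to the left in both comparisons with mVec, and in T minus PT the called members, Tlr3, Mavs, Irf3 and Samhd1, lie between 0.87 and 1.98.

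Between the Kit lines, 4 of the 8 members were called, all higher in T: Tlr3, Mavs, Irf3 and Samhd1. None was called lower by limma, and none was lower at an unadjusted p under 0.05. Over all gene probe sets 8.36% were called, 5.67% higher and 2.7% lower in T. The median of the members' differences was 0.78 against -0.04 over all gene probe sets, and the arrays of T and PT did not overlap for 6 of the 8, as for 50.1% of all gene probe sets. Of these 4, Mavs and Irf3 were not called in T against mVec, whereas Tlr3 and Samhd1 were lower than in mVec in both lines.

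Other sensing genes were read from lists for DNA sensing, RNA sensing, the adaptors, kinases and transcription factors that follow, and the nucleases and editors that remove the cell's own nucleic acid. Of 20 measured genes of DNA sensing and cGAMP handling, Cgas and Sting1 included, 10 rose and 3 fell in T against mVec, with a median of 0.70 against 0.01 over all gene probe sets. In PT, 9 rose and 5 fell, with a median of 0.48 against 0.08. The shares called over all gene probe sets were 16.9% higher and 15.5% lower in T, and 17.9% higher and 18% lower in PT. Without genes at background in both groups compared, 9 rose and 2 fell in T, and 8 rose and 4 fell in PT. Aim2, which binds cytosolic DNA and starts an inflammasome, gave 11.64 and 11.84 in T, 12.22 and 11.70 in PT, against 7.96 and 7.74 in mVec. Like Cgas it was at background in mVec and above the limit in both Kit lines, at least 6.68-fold higher in T (3.89 ± 0.24, limma adjusted p = 1.61e-06) and at least 7.79-fold higher in PT (4.11 ± 0.24). Slc19a1, a folate carrier that in human cells also imports cyclic dinucleotides, rose 16.5-fold in T and 14.9-fold in PT. Hmgb2, a chromatin protein that binds DNA, rose 10.7-fold in T and 14.6-fold in PT.

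Ifi204 and Mndal, relatives of Aim2 in the interferon-inducible p200 family, fell in both lines. No other gene of that family in the list had a matched probe set. Ifi204 gave 13.01 and 13.09 in T, 12.08 and 12.00 in PT, against 16.26 and 16.06 in mVec, a fall of 8.63-fold in T and 17.4-fold in PT. Mndal fell 11.4-fold in T and 17.9-fold in PT. Genes of this family are alike in sequence, and probe sets may share signal between them. Between the Kit lines, Ifi204 (1.01 ± 0.20, adjusted p = 0.0162), Xrcc6, the DNA end-binding protein Ku70 (1.03 ± 0.22, adjusted p = 0.0223), and Prkdc, the catalytic subunit of the kinase it recruits, at background in both lines (0.92 ± 0.22, adjusted p = 0.0314), were called higher in T. G3bp1, a stress granule protein, was lower in T (-1.74 ± 0.38, adjusted p = 0.0235).

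Of 23 measured RNA sensing genes, Tlr3 included, 12 fell and 1 rose in T, with a median of -1.76 against 0.01 over all gene probe sets. The counts in PT were the same, 12 and 1, with a median of -2.11 against 0.08. Of all gene probe sets, 15.5% were called lower and 16.9% higher in T, and 18% lower and 17.9% higher in PT. In each line 6 of the 13 called genes were at background in both groups compared, which leaves 6 that fell and 1 that rose. Ddx58, which encodes RIG-I, gave 10.19 and 10.48 in T, 9.88 and 9.66 in PT, against 13.43 and 13.56 in mVec. Ifih1, which encodes MDA5, gave 9.29 and 9.48 in T, 9.31 and 9.14 in PT, against 13.33 and 13.41 in mVec. Both sensors that use Mavs were thus highest in mVec by a wide margin and above the limit in the Kit lines. Ifih1 was near the limits there, which were 8.93 and 8.74 on the T arrays and 9.16 and 8.86 on the PT arrays. Ddx58 fell 8.94-fold in T and 13.2-fold in PT. Ifih1 fell 15.8-fold in T and 17.6-fold in PT, folds taken from values near the limit. For Oasl2, an oligoadenylate synthetase-like protein, the fall was at least 70.2-fold in T, and in PT it was at least 62.0-fold. Oas1b, above the limit on 1 of the mVec arrays, was called lower in both lines (-4.33 ± 0.24 in T and -3.94 ± 0.24 in PT), and its near relatives in the Oas1 cluster may share signal with it. Zc3hav1, a zinc finger protein that binds viral RNA, was the called gene that rose, 3.11-fold in T and 1.84-fold in PT. The endosomal RNA receptors Tlr7, Tlr8 and Tlr13 were at background in all groups, as was Tlr9, a receptor for DNA that was listed with them. In T against PT, Tlr3 alone of the 23 was called (0 lower, also at an unadjusted p under 0.05 by limma).

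**Figure D3:**
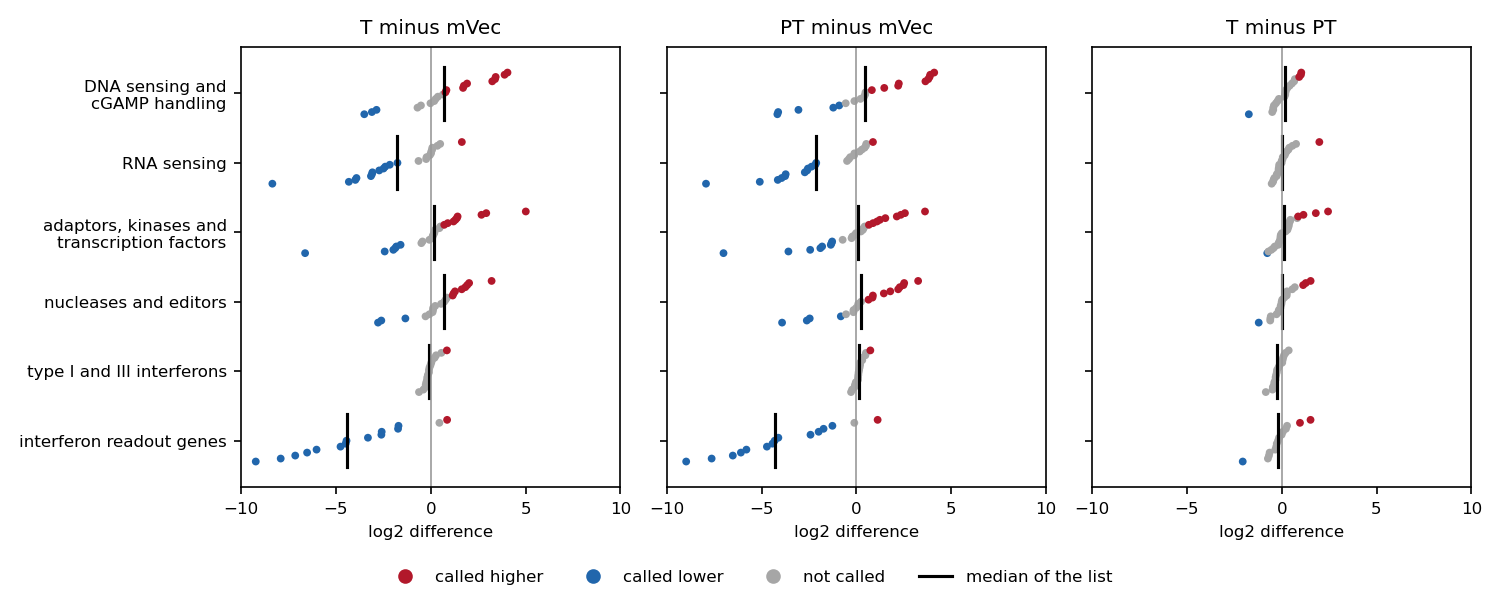
Log2 differences of the measured genes of 6 lists in the 3 comparisons; each point is a gene, red called higher, blue called lower and grey not called, and black bars are list medians. RNA sensing and interferon readout genes lie mostly left of 0 against mVec, with medians of -1.76 and -4.45 in T, whereas genes of DNA sensing lie on both sides.

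Among 26 measured adaptors, kinases and transcription factors, with Mavs, Tbk1 and Irf3 included, 9 rose and 6 fell in T (median 0.19 against 0.01 over all gene probe sets), and 9 rose and 8 fell in PT (median 0.12 against 0.08). In each line 6 of the called genes were at background in both groups compared, and without them 7 rose and 2 fell in T, and 8 rose and 3 fell in PT. Over all gene probe sets 32.4% were called in T, 16.9% higher and 15.5% lower. In PT 35.9% of them were called, 17.9% higher and 18% lower. Irf7, the relative of Irf3 that interferon induces, gave 3.33 and 3.58 in T, 2.98 and 3.19 in PT, against 10.15 and 10.03 in mVec. It passed the limit in mVec alone. In T it fell by at least 2.39-fold (-6.63 ± 0.21), and in PT by at least 2.11-fold (-7.01 ± 0.21). Ticam1, the adaptor of Tlr3 also called TRIF, was above the limit on 1 of the mVec arrays and its fall was at least 1.17-fold in T, and in PT it was at least 1.03-fold. Both the receptor Tlr3 and its adaptor were thus called lower in both lines. Higher in both lines were the signal adaptor Traf2, at least 3.98-fold in T and at least 6.47-fold in PT, and Traf6, a ubiquitin ligase, 2.59-fold in T and 4.40-fold in PT. Rnf125, a ubiquitin ligase that marks RIG-I and MAVS for degradation, was at least 5.86-fold higher in T and at least 1.08-fold higher in PT. It gave 11.68 and 11.43 in T and 9.11 and 9.11 in PT, and T minus PT was 2.44 ± 0.24 (adjusted p = 0.00102). Traf5, at background in both lines (1.15 ± 0.28, adjusted p = 0.0384), was also called higher in T than in PT, and Traf6 lower (-0.76 ± 0.20, adjusted p = 0.0451).

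Of 21 measured nucleases and editors, Samhd1 and Adar included, 8 rose and 3 fell in T (median 0.71 against 0.01 over all gene probe sets), and 10 rose and 4 fell in PT (median 0.25 against 0.08). Over all gene probe sets 16.9% were called higher and 15.5% lower in T, and 17.9% higher and 18% lower in PT, so that the falls in this list are near the background share. Without genes at background in both groups compared, 7 rose and 3 fell in T, and 9 rose and 3 fell in PT. Fen1, the flap endonuclease of DNA replication, was at least 3.06-fold higher in T and at least 3.19-fold higher in PT. Rnaseh2a, the catalytic subunit of the ribonuclease that cuts RNA paired with DNA, was at least 2.08-fold higher in T and at least 3.17-fold higher in PT. Banf1, a chromatin protein that competes with cGAS for DNA, rose 4.05-fold in T and 4.91-fold in PT. Those that fell with Samhd1 were Adarb1, a second editor of double-stranded RNA, 6.12-fold in T and 5.49-fold in PT, and Pld3, a lysosomal nuclease for single-stranded nucleic acid, 6.89-fold in T and at least 4.97-fold in PT. In PT the test also called Apex1, a DNA repair endonuclease, lower, at background in both groups. Apex1 was called higher in T than in PT by at least 1.37-fold (1.52 ± 0.27, adjusted p = 0.00924), Pld3 was called higher in T (1.13 ± 0.24), and Supv3l1, a mitochondrial RNA helicase, lower (-1.21 ± 0.24, adjusted p = 0.0147), with no fold for the last pair, whose brighter line averaged no more than the limit.

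**Figure D4:**
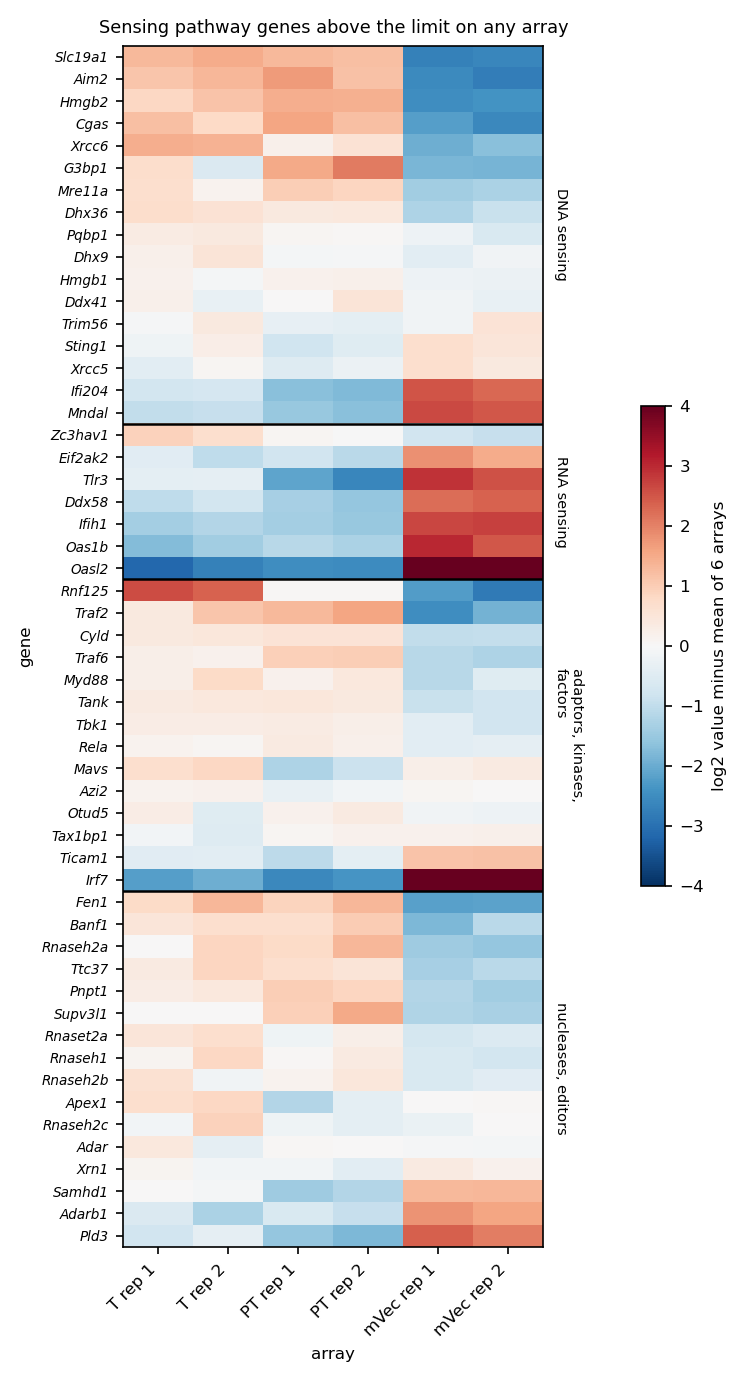
Heatmap of 54 genes of the 4 sensing lists that passed the background limit on at least 1 array, with arrays of T, PT and mVec in columns; colour is the log2 value minus the gene's mean over the 6 arrays, and values beyond 4 in either direction are drawn at the end of the scale. In the DNA sensing block Cgas, Aim2, Slc19a1 and Hmgb2 are low in mVec and Ifi204 and Mndal high, and in the RNA sensing block most genes are high in mVec.

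The interferon genes at the end of the pathway were not above background. All 18 measured genes of type I and type III interferons, Ifnb1 included, were at background on all 6 arrays. Ifnb1 gave 5.32 and 5.20 in T, 6.37 and 5.83 in PT, against 5.46 and 5.26 in mVec. It was called higher in PT (0.74 ± 0.24, limma adjusted p = 0.035) with no fold, as was Ifna16 in T (0.85 ± 0.29, adjusted p = 0.0476). The coding sequences of the Ifna genes are alike, so their probe sets may share signal. Most genes that interferon or IRF3 switch on, read from a list that also holds the interferon receptor genes Ifnar1 and Ifnar2, were high in mVec. Of 15 measured readout genes, 13 fell and 1 rose in each Kit line, with medians of -4.45 in T and -4.31 in PT. The medians over all gene probe sets were 0.01 and 0.08. Called lower and higher over all gene probe sets were 15.5% and 16.9% in T, and 18% and 17.9% in PT. The gene that rose was Isg20 in T and the chemokine gene Cxcl10 in PT. The lower bounds on the falls in T were 95.4-fold for Ifit3 and 16.9-fold for Ifit1, both antiviral, 7.62-fold for Usp18, which limits interferon receptor signalling, and 6.72-fold for Isg15, whose promoter is shown above. In PT the bounds were 84.3-fold for Ifit3, 14.9-fold for Ifit1, 6.73-fold for Usp18, 5.93-fold for Isg15 and 5.09-fold for Irf9, a subunit of the factor that interferon activates. The chemokine gene Ccl5 differed between the Kit lines (7.47 and 8.78 in T, 9.83 and 10.53 in PT, T minus PT -2.06 ± 0.41, adjusted p = 0.0161), as did Isg20 (0.96 ± 0.22) and Ifit2, at background in both (1.52 ± 0.23).

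The genes whose pattern over the 6 arrays was most like that of a member were sought for Cgas, Tlr3 and Samhd1 among 7121 probe sets of named genes above the limit in some group. Likeness was the root mean square difference of log2 values centred on their mean. For Cgas they were Cpsf4 (0.147), Nol6 (0.166) and Hmgn5 (0.170), for Tlr3 they were Capn5 (0.142), Pcdhb16 (0.200) and Sfrp1 (0.212), and for Samhd1 they were Fam174a (0.0974), Fech (0.102) and Myo7a (0.103). With 3 groups of arrays, many genes share any such pattern.

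Markers of other cells and of RNA handling were read beside these results, because in RNA from many cells fewer cells of a type and less RNA per cell cannot be told apart. All 13 measured leukocyte markers, Ptprc, Csf1r and Itgam among them, were at background on every array. Their summed signal on the log2 scale was 7.94 and 8.09 in T, 8.33 and 8.08 in PT, against 7.97 and 8.04 in mVec. Of 11 measured fibroblast markers, Col1a1, Col3a1, Dcn, Lum, Pdgfrb and Fap fell and Col1a2 and Fbln1 rose in each Kit line. Without genes at background in both groups compared, 5 fell and 1 rose in each line. Of all gene probe sets, 15.5% were called lower and 16.9% higher in T, and 18% lower and 17.9% higher in PT. On each T array 3 of the 11 markers passed the limit, on the PT arrays 1 and 2, and on each mVec array 5. Their summed signal was 12.56 and 12.72 in T, 11.89 and 12.20 in PT, against 17.09 and 17.25 in mVec. Of 6 endothelial markers, Cdh5 was above the limit in mVec only (10.77 and 10.55) and fell in both lines, with a summed signal of 7.27 and 6.94 in T, 7.33 and 7.14 in PT, against 10.85 and 10.66 in mVec. All 8 keratinocyte markers were at background. Of 14 genes of RNA quality and handling, 8 fell and 3 rose in each line, the immediate early genes Fos and Egr1 among the falls. Without genes at background in both groups compared, 6 fell and 3 rose in each line. The medians were -1.13 in T and -1.32 in PT, against 0.01 and 0.08 over all gene probe sets. The shares called over all gene probe sets are those given with the fibroblast markers. Of the 14, 10 passed the limit on each array of T and PT, against 11 on each mVec array. Their summed signals were 18.75 and 18.79 in T, 18.50 and 18.65 in PT, against 18.84 and 18.87 in mVec. The part of these markers in the members' differences was not tested.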

How the data were processed

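Total RNA of 6 samples was labelled with biotin and run on Affymetrix Clariom S mouse arrays, per the labels' protocols. The authors deposited log2 expression, with 1 value for each probe set on each array. The values were normalized in a way not given in the sources used here, and differences are relative to that scale. Of 28846 rows, 22206 gene probe sets were tested, 5222 negative controls set the background limit and 1418 other controls were left out. Symbols came from the platform annotation, updated through gene IDs to RefSeq names, and 19572 probe sets carried 1 symbol. Where a gene had several probe sets, the highest mean over 6 arrays was used.

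R 4.3.3 and limma 3.58.1 fitted all 6 arrays in 1 linear model with a mean per group (3 residual and 6.362 prior degrees of freedom). P-values are two-sided, adjusted by Benjamini-Hochberg over all gene probe sets within a comparison. Where 1 group was at background, the fold is a bound: per array, the higher of its limit and the dim value stood for the dim group. Promoters are from RefSeq (GRCm38.p6), and their printed strands are the genes' own. The number of arrays limits the precision.

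The members and gene lists were chosen with earlier results of these data known. Of 208 listed genes, 186 were matched, and the others were not analysed here. Named list genes are all the called genes of a list with at most 5 calls in a comparison, and otherwise up to 4 with the largest called difference among genes above background whose arrays do not overlap. For Cgas, Tlr3 and Samhd1, the members above background with the largest T minus mVec differences, the 3 genes of most like pattern are named. Zc3hav1, the Tlr genes at background, Cxcl10, the named marker genes and a gene's values in comparisons that did not name it were chosen after values were seen.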

Additional observations from a re-analysis of the deposited data

Results flagged for a closer look

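In 4 members the effect of T against mVec differed from the effect of PT against mVec, by the limma test of the difference itself, which is T minus PT. The differences were 1.98 for Tlr3 (adjusted p = 0.00219), 1.80 for Mavs (0.00211), 1.27 for Samhd1 (0.00665) and 0.87 for Irf3 (0.0358), all with T above PT on both arrays. Mavs lay above mVec in T and below it in PT on both arrays, though the T value did not pass its test against mVec. The Irf3 values are all below the background limit.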

How the results depend on the processing

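Of 333 values of single members under alternatives, 313 kept their direction and side of the threshold, 10 lost their call, 2 gained one and 8 changed sign. Not all of these alternatives were separate checks. Each member had 1 probe set, so averaging a gene's probe sets left its values as they were. In each comparison, fitting only the 2 groups compared and leaving out either array of the third group gave the same fit. The counts include these repeats. Centring each array on its median raised differences from mVec by 0.18 in T and 0.19 in PT and changed no member's call or sign. Sign changes were limited to uncalled values near 0. Adar T minus mVec was -0.12 under quantile normalization and ran from -0.29 (without T replicate 1) to 0.47 when arrays were left out, Adar PT minus mVec was -0.0895 under quantile normalization, and Adar T minus PT ran from -0.39 to 0.38 when arrays were left out (0.38 without T replicate 2, 0.01 without PT replicate 1). Tbk1 T minus PT was -0.0300 under quantile normalization and from -0.0417 to 0.0574 with arrays left out. Leaving out arrays in turn gave 1 to 2 members called higher against mVec in each line, against 2 reported, and 2 to 4 higher in T than in PT, against 4 (2 without PT replicate 1, 3 without T replicate 2). It gave 4 to 11 list genes higher and 0 to 3 lower in T than in PT, against 13 and 4, the fewest higher without PT replicate 1 (4) and T replicate 2 (5), and the fewest lower without PT replicate 2 (0). Over all gene probe sets it gave 370 to 1119 higher and 176 to 595 lower against 1258 and 599, the fewest without PT replicate 1 (370) and PT replicate 2 (176), with 454 and 205 without T replicate 2, and an intensity trend gave 950 lower. The cause of these moves was not tested, beyond the smaller number of arrays where 1 was left out. Gains for Sting1 were T minus mVec under quantile normalization (-0.69) and T minus PT among probe sets above the limit (0.69). With the limit at the 99th percentile, 2, 0 and 2 members passed it in T, PT and mVec, against 7, 6 and 6. Every "at least" fold thus depends on the limit chosen. Cgas, Sting1, Tlr3 and Tbk1 were below that higher limit on every array, so their folds can be given at the lower limit only. The titles number arrays alike in each group, but deviations of equal numbers did not move together (r = 0.08, 0.04 and 0.04 over genes between the 3 pairs of groups, from 2 numbers each). With the replicate block, 2 members were called higher and 2 lower in T minus mVec, 2 and 5 in PT minus mVec, and 4 and 0 in T minus PT, the counts found without it. The block gave 3820 higher and 3510 lower gene probe sets in T minus mVec, 4015 and 4039 in PT minus mVec, and 1237 and 582 in T minus PT, against 1258 and 599 in the last without it.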
